A study of Homo sapiens with 12 samples.

Results

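Megakaryocyte lineage genes were examined in 3 lines of human leukemia cells: 9 genes chosen by name for their place in the megakaryocyte and platelet program, out of 60671 genes in the count table. The 9 genes encode the platelet adhesion receptors ITGA2B, ITGB3, GP1BA, GP1BB and GP9, the secreted proteins PF4 and VWF, and the transcription factors FLI1 and RUNX1. The rule names the genes and states no measured value, but they were picked with earlier results of these data known, and all 9 had a row in the table. Each line was sequenced in 4 replicate samples, and enough reads for a test across lines were counted for 4 of the 9 genes, ITGA2B, ITGB3, GP1BA and RUNX1, among 18626 genes tested in all.

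K562 is an established line from a patient with chronic myeloid leukemia in blast crisis and was the parental line. K/VP.5 is a clone of K562 cells that was selected under etoposide, a drug that traps topoisomerase II on DNA. K562/SSedit-2 is a clone of K562 cells in which a splice site of TOP2A, the gene of topoisomerase IIα, was silenced by CRISPR/Cas9 with a repair template. All cells were grown in the same serum-supplemented medium and were used in mid-log phase, and the labels name no agent that induces megakaryocyte differentiation. Because K/VP.5 and K562/SSedit-2 are each 1 clone, the effect of the selection or the edit cannot be told apart from differences between clones. The labels do not say whether replicates came from separate cultures, so p-values measure the spread between these samples only.

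Megakaryocytes and erythroid cells arise from a shared progenitor, and K562 cells can be driven toward either fate. In megakaryocytes, ITGA2B and ITGB3 pair to form the fibrinogen receptor (CD41/CD61), and GP1BA, GP1BB and GP9 assemble into the receptor that binds von Willebrand factor, the product of VWF. PF4 is a chemokine stored in platelet alpha granules, and FLI1 (an ETS factor) and RUNX1 (a runt-domain factor) act with GATA1 at megakaryocyte genes.

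Total counts ranged from 28981722 to 43648830 per sample, and 3 counts corresponded to 0.0691 to 0.102 CPM (counts scaled to library size). The edited gene was checked first. TOP2A was at 402 ± 59.1 CPM in parental K562, 275 ± 7.50 in resistant K/VP.5 and 192 ± 16.0 in edited K562/SSedit-2 (mean ± SD, n = 4 each), and its log2 fold change in K562/SSedit-2 against K562 was -1.07. K562 replicate 1 stood apart from the other K562 replicates for several genes, including TOP2A at 488 CPM and RUNX1 at 60.8 CPM, and without it the TOP2A change was -0.96, short of the 2-fold cutoff. Results for the lineage genes are therefore also given without that sample where it moved them.

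Promoter sequences are shown for RUNX1, the gene whose level changed, for ITGA2B, which was counted at a low level in all lines, and for GP9, which had no counts. RefSeq promoter entries on GRCh38.p14 were matched for 4 of the 9 genes, and each matched the reference genome. The 250 bases before each RefSeq start are given 5′ to 3′ on the gene's strand, in lower case, with capitals marking matches to 3 kinds of motif, searched on both strands. The GATA factor motif was AGATAA or, as its other form, TGATAA. The ETS factor motif was AGGAAG or, as its other form, CGGAAG. The RUNX factor motif was TGTGGT or, as its other form, TGCGGT.
RUNX1 (chr21:34888700-34888949, minus strand): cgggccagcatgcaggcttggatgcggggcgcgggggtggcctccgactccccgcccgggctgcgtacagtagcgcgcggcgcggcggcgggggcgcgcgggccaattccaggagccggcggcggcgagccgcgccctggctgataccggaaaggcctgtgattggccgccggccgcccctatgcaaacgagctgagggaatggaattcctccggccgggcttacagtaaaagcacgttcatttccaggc
ITGA2B (chr17:44389650-44389899, minus strand): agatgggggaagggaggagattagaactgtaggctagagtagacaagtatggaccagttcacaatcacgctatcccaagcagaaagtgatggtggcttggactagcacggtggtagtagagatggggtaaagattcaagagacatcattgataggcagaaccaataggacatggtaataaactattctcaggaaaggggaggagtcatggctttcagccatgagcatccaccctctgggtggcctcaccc
GP9 (chr3:129060529-129060778, plus strand): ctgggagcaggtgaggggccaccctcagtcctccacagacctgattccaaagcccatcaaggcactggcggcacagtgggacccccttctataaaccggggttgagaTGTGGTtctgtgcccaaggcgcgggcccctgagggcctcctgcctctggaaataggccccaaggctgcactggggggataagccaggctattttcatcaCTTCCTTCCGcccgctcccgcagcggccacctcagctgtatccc
The RUNX1 and ITGA2B windows held none of these letters. The GP9 window held 2 ETS matches that overlap each other, on the minus strand at 44 to 39 and 40 to 35 bases upstream, and 1 RUNX match at 143 to 138 bases upstream. The GP1BB window, which is not printed, held 1 ETS and 1 RUNX match. Of 35116 promoter windows of the same length, 14.6% held a GATA match, 40.8% an ETS match and 16.3% a RUNX match, so these matches are common and are given as a description of the letters. The RUNX1 window lies inside the longer gene span that GENCODE annotates (chr21:34787801-36004667), which starts farther upstream.

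Of the 9 genes, RUNX1 differed between lines. Counts of RUNX1 (ENSG00000159216) were 2212, 2045, 1661 and 1712 in K562 replicates 1 to 4, 224, 259, 220 and 187 in resistant K/VP.5, and 1931, 1678, 1246 and 1280 in edited K562/SSedit-2. All 4 K/VP.5 samples lay far below every sample of both other lines, while K562 and K562/SSedit-2 overlapped. Replicates of K/VP.5 and K562 did not overlap for 43% of all tested genes. In CPM, RUNX1 was at 48.5 ± 8.47 in parental K562, 6.30 ± 0.532 in resistant K/VP.5 and 44.0 ± 7.25 in edited K562/SSedit-2 (SD, n = 4 each). RUNX1 was 7.71-fold lower in K/VP.5 than in the parental line (95% confidence interval 6.29 to 9.44), with a log2 fold change of -2.95 (SE 0.138; edgeR's quasi-likelihood test, Benjamini-Hochberg adjusted p = 3.65e-11). An exact permutation test of the difference of mean CPM gave a two-sided p = 0.029, the smallest that 4 against 4 samples allow. In bulk RNA, fewer cells expressing RUNX1 and less RUNX1 RNA per cell cannot be told apart.

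RUNX1 was 1 of the 4 tested lineage genes past the threshold of a 2-fold change and an adjusted p under 0.1 in K/VP.5 against K562, where 15.6% of all tested genes passed it, 8.98% higher and 6.66% lower. Without K562 replicate 1, the highest of all samples, the log2 fold change was -2.84. Against K/VP.5, RUNX1 was 6.99-fold higher in K562/SSedit-2 (log2 fold change 2.81, SE 0.137; edgeR's quasi-likelihood test, adjusted p = 6.03e-11), again as 1 of 4 tested lineage genes, with 15.8% of all tested genes past the threshold, 6.2% higher and 9.62% lower. These comparisons share the K/VP.5 samples. Between K562/SSedit-2 and K562 the log2 fold change of RUNX1 was -0.14 (95% confidence interval -0.40 to 0.12; edgeR's quasi-likelihood test, adjusted p = 0.552), and it was -0.01 without K562 replicate 1. RUNX1 was lower in K562/SSedit-2 in 4 of 4 same-numbered pairs, at 53.9 against 60.8, 45.0 against 47.1, 39.0 against 44.7 and 38.2 against 41.6 CPM. An exact two-sided sign-flip test over these pairs gave p = 0.125, the smallest that 4 pairs allow, and a fit blocked on replicate number gave -0.14 (adjusted p = 0.409, edgeR's quasi-likelihood test). The interval of the unblocked fit does not reach a 2-fold change in either direction.

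**Figure D1:**
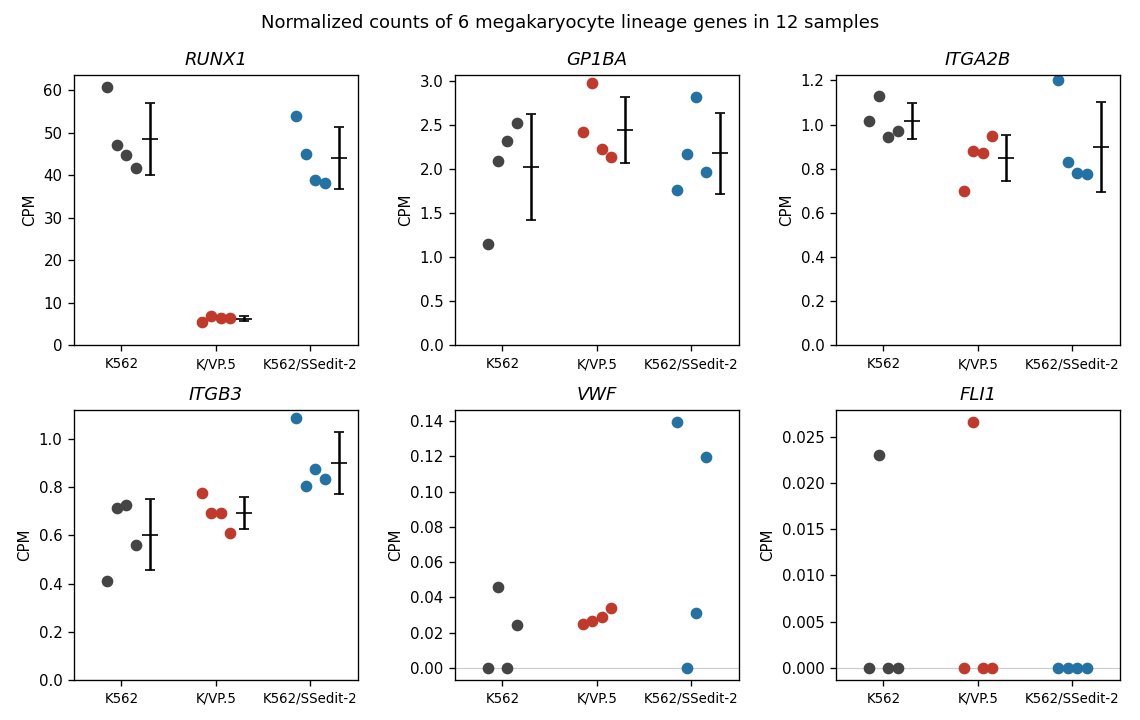
CPM of RUNX1, GP1BA, ITGA2B, ITGB3, VWF and FLI1 (vertical axes) in the 4 replicates of each line, from left K562, then K/VP.5, then the edited clone; dots are samples, and the horizontal mark with bars is the mean and SD, left out for VWF and FLI1, whose samples hold at most 5 counts. The 4 K/VP.5 samples of RUNX1 lie between 5.60 and 6.89 CPM, below all samples of the other lines, while the lines overlap for GP1BA and ITGA2B.

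The RUNX1 gene spans 1216867 bases on chromosome 21, and none of its 15574 exonic bases is shared with exons of another annotated gene. Of the 4 other tested genes within 100 kb of RUNX1, 1 passed the threshold in K/VP.5 against K562: ENSG00000286153, a long noncoding RNA on the opposite strand inside RUNX1, with 0.539 CPM in parental K562, 0.107 in resistant K/VP.5 and 0.610 in edited K562/SSedit-2 (log2 fold change -2.31 in K/VP.5; edgeR's quasi-likelihood test, adjusted p = 4.35e-05). The strand setting of the counting is not given in the sources used here, so reads of RUNX1 introns and of this RNA may not be separable. A wider window of 1000 kb and a summary of the chromosome were added after RUNX1's counts had been seen. Of 23 tested genes in the wider window, 3 were higher (DOP1B, SIM2 and LINC00649) and 1 was lower in K/VP.5, with a median log2 fold change of 0.027. Over the 267 tested genes of chromosome 21, 40 were higher and 10 were lower, with a median of 0.056. Of all tested genes, 8.98% were higher and 6.66% were lower. The low level of RUNX1 in K/VP.5 was thus not shared by most of its tested neighbours.

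**Figure D2:**
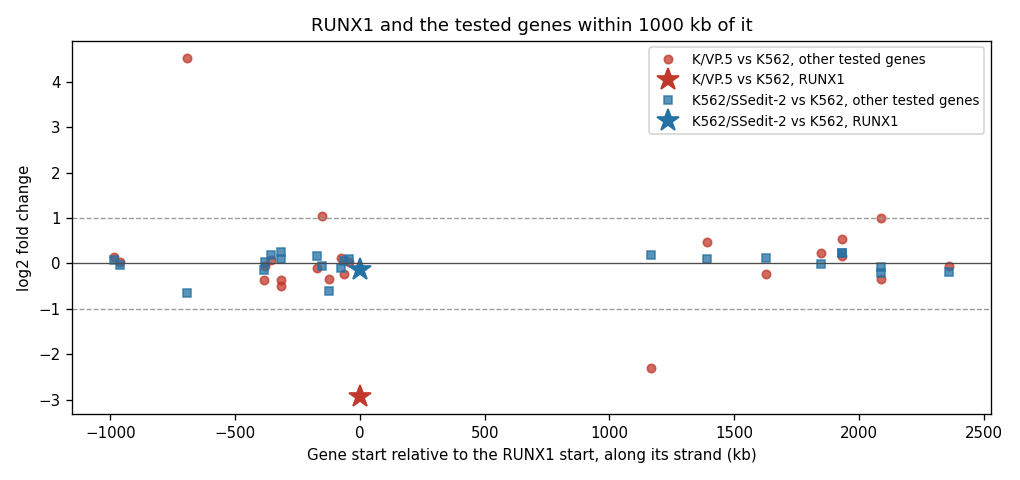
Log2 fold change (vertical axis) of RUNX1 (stars) and of the 23 other tested genes within 1000 kb of it, against the distance of each gene's start from the RUNX1 start along its strand in kb. Circles are K/VP.5 and squares K562/SSedit-2, each against K562; dashed lines mark 2-fold changes. RUNX1 at -2.95 and the RNA inside it at -2.31 are the only points below the lower dashed line.

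The genes with profiles most like that of RUNX1 over the 12 samples, by Pearson's correlation of log2(CPM + 0.1), were PLAGL1 (r = 0.997) and TRPV2 (r = 0.996), out of 13666 genes compared. PLAGL1, a zinc-finger transcription factor, was at 35.8 ± 6.23 CPM in parental K562, 2.79 ± 0.164 in resistant K/VP.5 and 32.6 ± 2.70 in edited K562/SSedit-2 (SD, n = 4 each). TRPV2, a cation channel, was at 97.2 ± 8.48, 25.9 ± 1.70 and 96.2 ± 4.79 CPM. The points fall into 1 group of K/VP.5 samples and 1 group of all others, and 749 genes reached a correlation of 0.95, so the likeness describes the low level in K/VP.5 that many genes share.

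FLI1, the other transcription factor among the 9 genes, was at the edge of detection. FLI1 had 1 count in K562 replicate 2, 1 count in K/VP.5 replicate 2 and none in the other 10 samples. No difference between lines was detectable at this depth. ETS1, the ETS-factor gene that lies 99.0 kb from FLI1, fell from 2.01 ± 0.515 CPM in parental K562 to 0.107 ± 0.0661 in K/VP.5 (SD, n = 4 each; log2 fold change -4.20; edgeR's quasi-likelihood test, adjusted p = 4.15e-08) and was at 1.32 ± 0.226 CPM in K562/SSedit-2.

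The fibrinogen receptor genes were counted at low levels in all samples. ITGA2B had 37, 49, 35 and 40 counts in parental K562, 28, 33, 30 and 28 in resistant K/VP.5, and 43, 31, 25 and 26 in edited K562/SSedit-2. Every pair of lines overlapped, and means were 1.01 ± 0.0815, 0.849 ± 0.106 and 0.897 ± 0.203 CPM (SD, n = 4 each). The log2 fold change was -0.27 in K/VP.5 against K562 (95% confidence interval -0.69 to 0.15) and -0.18 in K562/SSedit-2 against K562 (-0.59 to 0.24), and neither passed edgeR's quasi-likelihood test (adjusted p = 0.297 and 0.661). Between K562/SSedit-2 and K/VP.5 it was 0.089 (-0.34 to 0.52; adjusted p = 0.749, same test).

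ITGB3 had 15, 31, 27 and 23 counts in parental K562, 31, 26, 24 and 18 in resistant K/VP.5, and 39, 30, 28 and 28 in edited K562/SSedit-2. Means were 0.603 ± 0.148, 0.693 ± 0.0672 and 0.901 ± 0.128 CPM (SD, n = 4 each). In CPM, each K562/SSedit-2 sample was above each sample of both other lines, while K/VP.5 and K562 overlapped. In K/VP.5 against K562 the log2 fold change of ITGB3 was 0.20 (95% confidence interval -0.28 to 0.68; edgeR's quasi-likelihood test, adjusted p = 0.499), and it was 0.043 without K562 replicate 1 (adjusted p = 0.896, same test). The log2 fold change in K562/SSedit-2 against K562 was 0.57 (95% confidence interval 0.11 to 1.04; exact permutation p = 0.029 over unpaired regroupings), which did not pass edgeR's quasi-likelihood test after adjustment over all tested genes (p = 0.0189, adjusted p = 0.125). A fit blocked on replicate number gave an adjusted p = 0.143 (same test), and ITGB3 was higher in 4 of 4 same-numbered pairs, for which an exact sign-flip test gave p = 0.125, the smallest that 4 pairs allow. Without K562 replicate 1, the lowest sample, it was 0.44 (adjusted p = 0.205, same test). Replicates of these lines did not overlap for 13.2% of all tested genes. Against K/VP.5 the log2 fold change of ITGB3 was 0.37 (adjusted p = 0.179, same test), where 47.4% of all tested genes had replicates that did not overlap. Of the exonic bases of ITGB3, 33.2% are shared with ENSG00000259753, an annotated same-strand gene with 0 counts, so reads in the shared part may have been left out.

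In K562/SSedit-2 against K562, 0 of the 4 tested lineage genes passed the threshold in edgeR's quasi-likelihood test, against 2.06% of all tested genes, 0.805% higher and 1.26% lower. ITGB3 was the 1 of the 4 with an unadjusted p under 0.05, which 22.7% of all tested genes had, and DESeq2 and limma voom also called 0 of the 4.

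**Figure D3:**
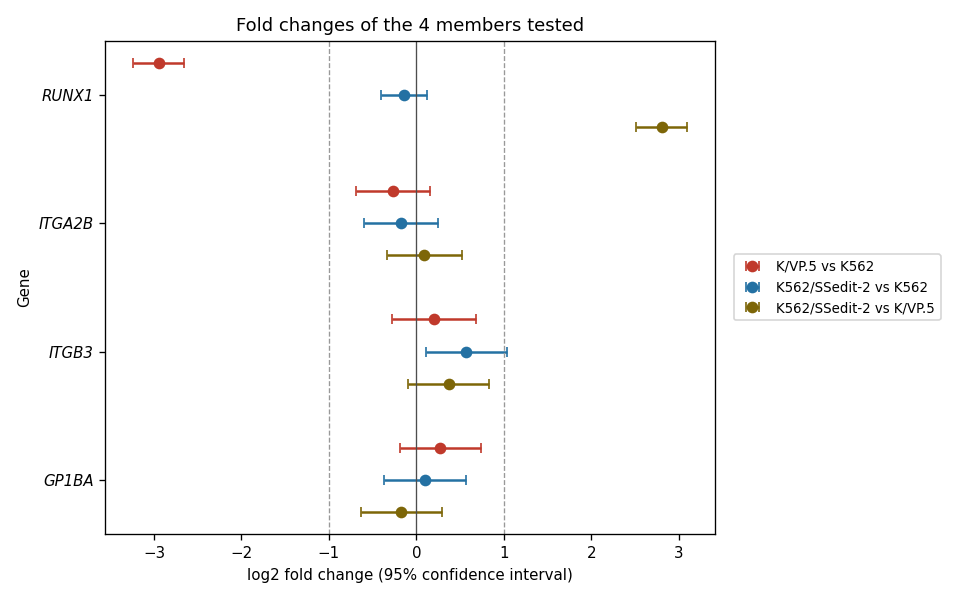
Log2 fold change (horizontal axis) of the 4 tested lineage genes in each of the 3 comparisons; points are estimates, bars are 95% confidence intervals, and dashed lines mark 2-fold changes. The RUNX1 intervals in both comparisons with K/VP.5 lie wholly beyond the dashed lines, and those of ITGA2B and GP1BA include 0 in each comparison.

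Of the 3 genes of the von Willebrand factor receptor, GP1BA was counted and GP1BB and GP9 were not. GP1BA had 42, 91, 86 and 104 counts in parental K562, 97, 112, 77 and 63 in resistant K/VP.5, and 63, 81, 90 and 66 in edited K562/SSedit-2. The lines overlapped, with means of 2.02 ± 0.605, 2.44 ± 0.378 and 2.18 ± 0.457 CPM (SD, n = 4 each). The log2 fold change was 0.27 in K/VP.5 against K562 (95% confidence interval -0.19 to 0.73; edgeR's quasi-likelihood test, adjusted p = 0.336) and 0.06 without K562 replicate 1, the lowest sample. In K562/SSedit-2 against K562 it was 0.10 (-0.37 to 0.57; adjusted p = 0.848, same test), and the sign turned to -0.09 without K562 replicate 1. Between K562/SSedit-2 and K/VP.5 it was -0.17 (-0.64 to 0.29; adjusted p = 0.552, same test).

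GP9 had 0 counts in all 12 samples, and its exons are shared with no other annotated gene. Over the 4 samples of a line, a count of 0 allows up to 0.0190 CPM in parental K562, 0.0212 in resistant K/VP.5 and 0.0216 in edited K562/SSedit-2 (3 counts, counting error only). GP1BB also had 0 counts in all 12 samples, but all of its 959 exonic bases (100%) lie in exons of ENSG00000284874, an annotated same-strand read-through gene. Reads from GP1BB may therefore have been left out or given to that gene, and its 0 cannot be read as a lack of GP1BB RNA. The read-through gene was at 0.674 CPM in parental K562, 3.96 in resistant K/VP.5 and 0.802 in edited K562/SSedit-2 (log2 fold change 2.52 in K/VP.5 against K562; edgeR's quasi-likelihood test, adjusted p = 1.07e-06). SEPTIN5, a cytoskeletal GTPase gene that also overlaps GP1BB, was at 3.32, 9.83 and 3.91 CPM (log2 fold change 1.56; adjusted p = 4.60e-06, same test). TBX1, a T-box factor gene 31.9 kb from GP1BB, was also higher in K/VP.5, at 132 against 31.3 CPM.

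The secreted proteins were nearly silent. PF4 had 0 counts in all 12 samples, under the same limits as GP9. PF4 has a closely related neighbour, PF4V1, which also had 0 counts, and how reads mapping to both were counted is not given in the sources used here. VWF had 0, 2, 0 and 1 counts in parental K562, 1, 1, 1 and 1 in resistant K/VP.5, and 5, 0, 1 and 4 in edited K562/SSedit-2. The lines overlapped, and from the summed counts of 10 and 3 the ratio of K562/SSedit-2 to K562 was 3.80 (95% exact interval 0.979 to 21.5, counting error only). VWF was not tested across genes, and an exact permutation test of its mean CPM gave p = 0.26.

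Both tested genes within 100 kb of VWF were higher in K/VP.5, although VWF itself had 4 counts there. CD9, a tetraspanin of the platelet surface 74.9 kb away, rose from 0.0646 ± 0.0553 CPM in parental K562 to 7.71 ± 0.895 in K/VP.5 (SD, n = 4 each; log2 fold change 6.85; edgeR's quasi-likelihood test, adjusted p = 2.70e-11), and was at 0.165 ± 0.0592 in K562/SSedit-2. ANO2, an anoctamin channel gene 2.65 kb away, had 1 count over the K562 samples and 69 over the K/VP.5 samples (ratio 77.0, 95% exact interval 13.4 to 3086, counting error only). Near the other genes, CXCL3 by PF4 was lower (log2 fold change -1.73), and CFAP92 by GP9 and FAM171A2 by ITGA2B were higher (1.89 and 1.24) in K/VP.5. No gene within 100 kb of any of the 9 passed the threshold in K562/SSedit-2 against K562.

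Levels of different genes were compared per kb of exon. Length was the union of all annotated exons of a gene, 15574 bases for RUNX1 and 2514 for GP1BA. Which transcripts were present is not known, so the orders and ranks below depend on that choice of length. In K562 the order was RUNX1 (3.12 ± 0.544 CPM per kb), GP1BA (0.805 ± 0.241), ITGA2B (0.178 ± 0.0143) and ITGB3 (0.0883 ± 0.0217), with VWF and FLI1 at or under 0.00169 and the other 3 genes at 0 (SD, n = 4 each). Replicates of neighbours in this order did not overlap among the first 4. In K/VP.5 GP1BA came first, at 0.971 ± 0.150 CPM per kb, above RUNX1 at 0.404 ± 0.0341, again without overlap. In K562/SSedit-2 the order was that of K562, but ITGA2B (0.136 to 0.211) and ITGB3 (0.118 to 0.159) overlapped. The place of ITGB3 also depends on whether shared exonic bases are part of its length. Over its unshared exonic bases alone, a choice made after seeing the data, ITGB3 was at 0.132 ± 0.0325 CPM per kb in parental K562, 0.152 ± 0.0147 in resistant K/VP.5 and 0.197 ± 0.0282 in edited K562/SSedit-2 (SD, n = 4 each). On that scale ITGB3 stayed below ITGA2B in K562, and its mean was above that of ITGA2B in both K/VP.5 (0.149 ± 0.0186) and K562/SSedit-2 (0.157 ± 0.0357), with replicates that overlapped. Against all tested genes with a length, RUNX1 stood above 55.0% of genes in parental K562, 21.7% in resistant K/VP.5 and 53.6% in edited K562/SSedit-2. GP1BA stood above 33.6%, 35.4% and 34.9% of genes in the same order of lines, and ITGA2B above 13.4%, 9.84% and 12.3%. In every sample, 5 of the 9 genes had at most 5 counts.

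The rest of the megakaryocyte and platelet program was described with 4 lists of 76 further genes, of which 59 passed the filter on low counts. In K/VP.5 against K562, 6 of the 59 were higher and 22 were lower, with a median log2 fold change of -0.66 beside 0.0067 over all tested genes. In K562/SSedit-2 against K562, 0 were higher and 2 were lower, with a median of -0.13 beside -0.01. The shares of all tested genes past the threshold were 15.6% and 2.06%, as given above. A gene high in K562 alone could pass the filter through that line, so these counts describe the tested genes and not the lists as a whole.

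Among 21 receptors of platelet adhesion and activation, 13 were tested, 3 were higher and 7 were lower in K/VP.5. PECAM1, an adhesion molecule of platelets and endothelium, fell from 24.8 ± 7.75 CPM in parental K562 to 0.286 ± 0.118 in K/VP.5 (SD, n = 4 each; log2 fold change -6.37; edgeR's quasi-likelihood test, adjusted p = 9.73e-12). The ATP-gated channel P2RX1 went from 10.6 to 0.535 CPM and the collagen receptor GP6 from 6.80 to 1.80 CPM, with log2 fold changes of -4.28 and -1.91. The ADP receptor P2RY1, at 67.9 ± 3.21 CPM in the parental line, was 6.18-fold lower in K/VP.5 (log2 fold change -2.63). The higher receptors were CD9, the scavenger receptor CD36 (0.272 to 2.49 CPM, log2 fold change 3.16) and the laminin receptor chain ITGA6. Of the 7 lower receptors, 2 named after their values were seen lost their call when single samples were left out. The thromboxane receptor TBXA2R, at -1.005, lay at the 2-fold cutoff. It fell short of 2-fold without K562 replicate 1 (-0.87), K/VP.5 replicate 1 (-0.999) or K/VP.5 replicate 2 (-0.97). Its adjusted p stayed at 7.76e-05 or less in each of these fits (edgeR's quasi-likelihood test). The collagen receptor chain ITGA2, at -1.26, lost its call without K562 replicate 2 (-0.95, adjusted p = 0.171) or K/VP.5 replicate 2 (-1.14, adjusted p = 0.123; same test). In K562/SSedit-2, 0 of the 13 passed the threshold against K562 in edgeR's quasi-likelihood test, 7 had an unadjusted p under 0.05 beside 22.7% of all tested genes, and PECAM1 was at 36.2 ± 4.40 CPM.

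Among 18 genes of platelet granules and secretion, 13 were tested, 2 were higher and 5 were lower in K/VP.5. The growth factor chain PDGFA rose from 2.62 ± 0.919 to 50.0 ± 13.8 CPM and the matrix protein SPARC from 2.73 ± 0.606 to 34.4 ± 2.30 CPM (log2 fold changes 4.26 and 3.65). PDGFB, the partner chain of PDGFA, fell from 18.0 ± 6.65 to 6.35 ± 4.17 CPM, and ANGPT1, a ligand of the TEK receptor, from 43.9 ± 6.13 to 15.9 ± 0.956 CPM (log2 fold changes -1.50 and -1.46). The matrix protein THBS1, named after its values were seen, was among the 5 lower genes at -1.07, and lost its call without K562 replicate 3 (-0.96), K/VP.5 replicate 1 (-0.89) or K/VP.5 replicate 2 (-0.91). The 2 genes lower in K562/SSedit-2 than in K562 were SPARC (1.11 ± 0.384 CPM, log2 fold change -1.29), which was higher in K/VP.5, and RAB27B, a GTPase of granule secretion named after its values were seen (0.486 to 0.152 CPM, log2 fold change -1.68).

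Among 18 genes of integrin activation and the platelet cytoskeleton, 15 were tested, 0 were higher and 8 were lower in K/VP.5 in edgeR's quasi-likelihood test. FERMT3 (kindlin-3), which activates the fibrinogen receptor from inside the cell, had 296, 298, 278 and 261 CPM in parental K562, 9.82, 11.2, 10.3 and 10.5 in resistant K/VP.5, and 313, 304, 314 and 273 in edited K562/SSedit-2. It was 27.1-fold lower in K/VP.5 than in the parental line (log2 fold change -4.76; adjusted p = 3.05e-16, same test). LCP2 (SLP-76), an adaptor of collagen receptor signalling, had 959 counts over the K562 samples and 0, 0, 5 and 0 in the K/VP.5 replicates. The actin crosslinker FLNA went from 1307 to 494 CPM, TPM4 from 101 to 43.5 CPM and the integrin-activating exchange factor RASGRP2 from 16.4 to 7.51 CPM. RASGRP2 was uneven in the parental line, at 27.0, 17.9, 10.8 and 9.99 CPM in replicates 1 to 4, and without K562 replicate 1 its log2 fold change was -0.81 (adjusted p = 0.00296, same test), short of the 2-fold cutoff. WAS, an actin regulator named after its values were seen, also fell short without that sample, at -0.94. The platelet tubulin TUBB1 went from 11.6 to 4.74 CPM, but 35.5% of its exonic bases are shared with ATP5F1E on the opposite strand. In K562/SSedit-2, 0 of the 15 passed the threshold against K562 in the same test, with 5 at an unadjusted p under 0.05 (22.7% of all tested genes).

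**Figure D4:**
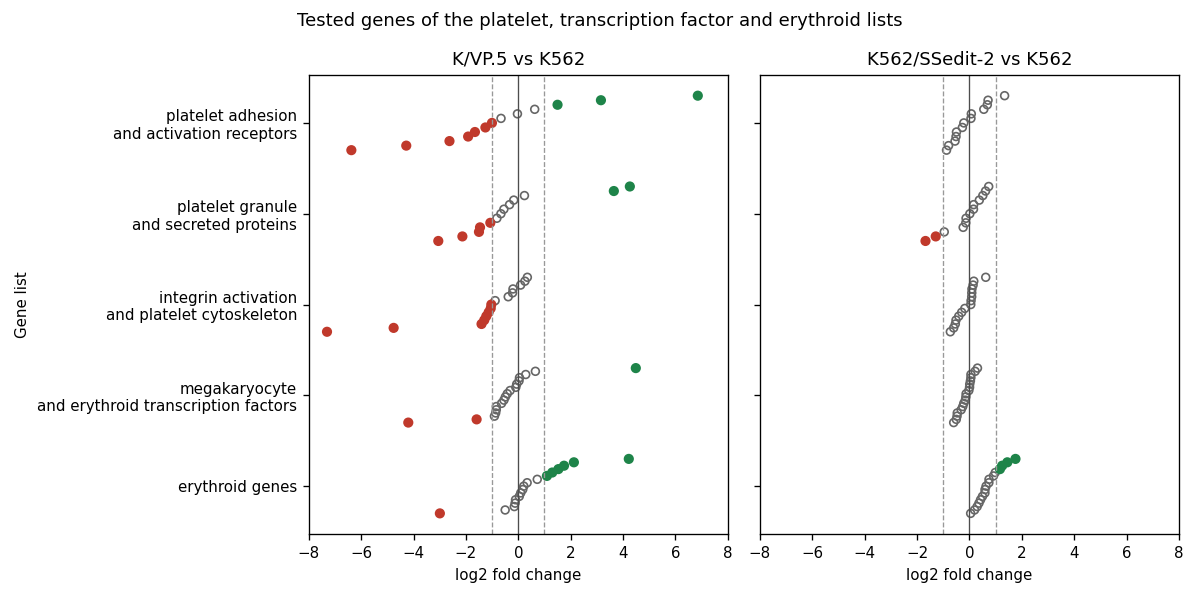
Log2 fold changes (horizontal axis) of tested genes in 5 lists (rows), in K/VP.5 against K562 (left) and K562/SSedit-2 against K562 (right). Filled points passed the threshold (green higher, red lower), open points did not, and dashed lines mark 2-fold changes. On the left, 8 of 15 integrin activation and cytoskeleton genes are red and none is green.

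Among 19 transcription factors of the megakaryocyte and erythroid lineages, 18 were tested, 1 was higher and 2 were lower in K/VP.5. These 3 of 18 are a share close to the 15.6% of all tested genes past the threshold. MEIS1, a homeobox factor, rose from 0.152 ± 0.0612 to 3.47 ± 0.647 CPM (log2 fold change 4.49; edgeR's quasi-likelihood test, adjusted p = 1.4e-08), with 13.3% of its exonic bases shared with antisense genes. ETS1 (above) and ETV6, an ETS-family repressor, were lower, ETV6 going from 30.1 to 10.0 CPM (log2 fold change -1.59). Other factors of this list that were named by rule had changes under 2-fold. GATA1 was at 387 ± 41.2 CPM in parental K562 and 275 ± 24.5 in K/VP.5 (log2 fold change -0.49). For NFE2, GFI1B and MYB the log2 fold changes were -0.91, -0.84 and -0.64, and for TAL1 and GATA2 they were 0.65 and 0.29, each with an adjusted p under 0.1 in the same test, as for 52.3% of all tested genes. KLF1, an erythroid factor, had a log2 fold change of -0.06 (95% interval within 2-fold; adjusted p = 0.642, same test). ERG, the ETS factor closest to FLI1, had 1 count in each line. In K562/SSedit-2 against K562, 0 of the 18 passed the threshold in the same test, and 8 had an unadjusted p under 0.05 (22.7% of all tested genes).

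A list of 8 genes of the RUNX family and its co-repressors was added after RUNX1's counts had been seen. RUNX2, a paralog of RUNX1, went from 3.34 ± 1.22 CPM in parental K562 to 0.345 ± 0.121 in K/VP.5 (log2 fold change -3.28; edgeR's quasi-likelihood test, adjusted p = 2.21e-07) and was at 2.14 ± 0.497 in K562/SSedit-2. RUNX3 had 0, 3 and 1 counts over the 3 lines, and the other 4 tested genes of that list did not pass the threshold.

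**Figure D5:**
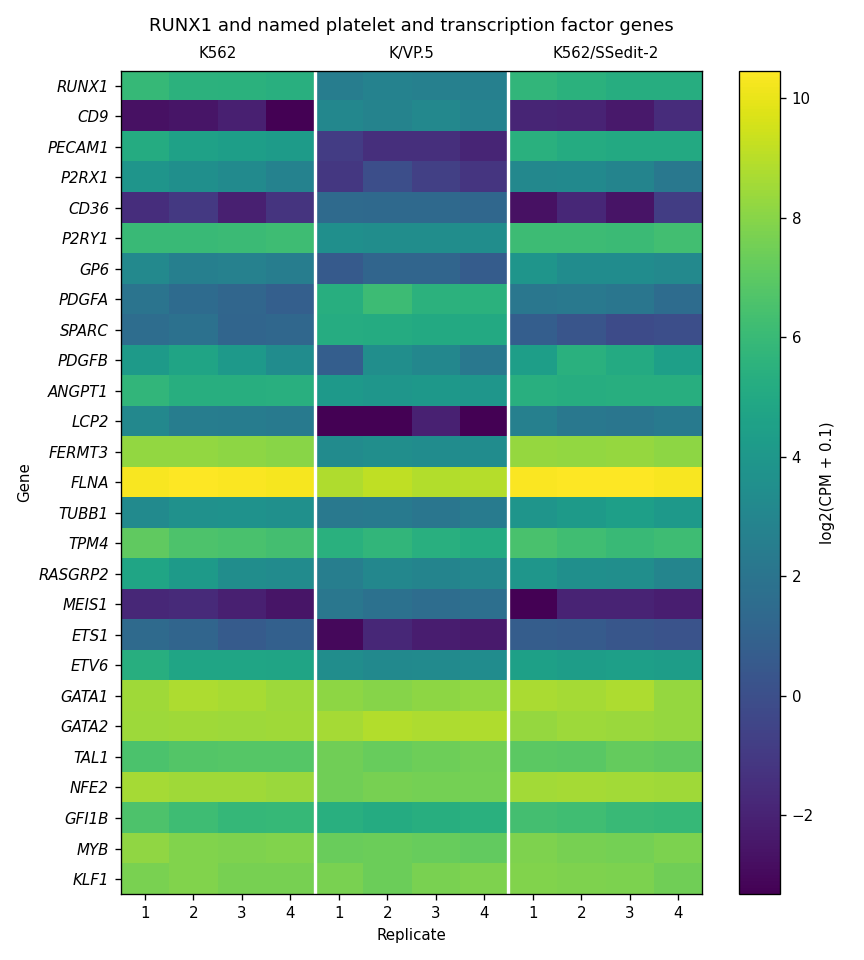
Log2(CPM + 0.1), as colour from dark (low) to yellow (high), of RUNX1 and 26 named platelet and transcription factor genes (rows) in the 4 replicates of each line (columns). RUNX1, FERMT3, PECAM1, P2RX1 and LCP2 are darker in all 4 K/VP.5 columns than in the other columns, and CD9, CD36, PDGFA, SPARC and MEIS1 are brighter there.

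Markers of other cell types moved beside these results. Of 17 erythroid genes, all tested, 6 were higher and 1 was lower in K/VP.5 than in parental K562, and 4 were higher and 0 lower in K562/SSedit-2. In K562/SSedit-2 another 10 had an adjusted p under 0.1 in edgeR's quasi-likelihood test with a change under 2-fold, 0 of the 17 had a log2 fold change below 0, and the median was 0.63. Of all tested genes, 12.6% had an adjusted p under 0.1 there whatever their fold change, and 4.86% also had a higher level in K562/SSedit-2. The summed level of the 17 genes was 4556 to 5592 CPM in parental K562, 4767 to 5065 in resistant K/VP.5 and 6575 to 6704 in edited K562/SSedit-2. Of the exonic bases of the globin genes HBE1 and HBG2, 90% and 55.6% are shared with same-strand genes. Reads of these genes may have been left out or given to others. SLC4A1 (band 3) was at 20.7 ± 2.73, 2.60 ± 0.325 and 49.1 ± 8.87 CPM in the same order of lines (SD, n = 4 each). Of 8 endothelial markers 3 were tested, and the list summed to 2.86 to 4.60 CPM in any sample, with CDH5 at 0 throughout. ESAM, an endothelial adhesion molecule, was lower in both clones, at 1.06 ± 0.252 CPM in parental K562, 0.442 ± 0.169 in resistant K/VP.5 and 0.492 ± 0.140 in edited K562/SSedit-2 (SD, n = 4 each). Its log2 fold changes against K562 were -1.27 and -1.10 (edgeR's quasi-likelihood test, adjusted p = 0.0022 and 0.0301). In K562/SSedit-2 the change of ESAM fell short of 2-fold without K562 replicate 2 (-0.97) and without K562/SSedit-2 replicate 4 (-0.96).

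Granulocyte and monocyte markers summed to 9.16 to 18.0 CPM in parental K562, 5.13 to 6.60 in resistant K/VP.5 and 7.63 to 10.7 in edited K562/SSedit-2. Of the 9 markers 5 were tested, and they did not move together in K/VP.5. SPI1, an ETS factor of myeloid cells, went from 9.12 to 1.00 CPM and the lysozyme gene LYZ from 1.44 to 0.291 CPM, while the myeloid factor CEBPA went from 0.370 to 1.51 CPM and the integrin chain ITGAM from 0.773 to 2.21 CPM, and these 4 passed the threshold. Of the exonic bases of CEBPA and LYZ, 43.9% and 34.7% are shared with genes on the opposite strand. In K562/SSedit-2, 0 of the 5 passed the threshold against K562 in edgeR's quasi-likelihood test, with 2 at an unadjusted p under 0.05 (22.7% of all tested genes).

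The summed lymphoid markers had medians of 31.5 CPM in parental K562, 10.6 in resistant K/VP.5 and 43.1 in edited K562/SSedit-2. Most of that sum was CD3D, which encodes a chain of the T-cell receptor complex, at 32.8 ± 12.4, 8.34 ± 1.71 and 43.1 ± 7.01 CPM in the same order (SD, n = 4 each). Of 6 lymphoid markers 2 were tested, and CD3D was the 1 past the threshold in K/VP.5 against K562. The part of these marker changes in the results for RUNX1 and the platelet genes was not tested.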

How the data were processed

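The deposited values were raw counts per Ensembl gene, which the authors made by aligning paired-end RNA-seq reads to GRCh38 with HISAT2 and counting with featureCounts. The annotation release, strand setting and handling of multi-mapped reads are not given in the sources used here. GENCODE 44, in which 60401 of the IDs had an entry, gave symbols, positions and exon lengths. Samples were grouped by title into 3 lines of 4. Counts were filtered with filterByExpr (minimum count 10), TMM-scaled and tested with edgeR 4.0.16 (R 4.3.3; glmQLFit and glmQLFTest over all 12 samples), with Benjamini-Hochberg adjustment over 18626 genes. The threshold was a 2-fold change and an adjusted p under 0.1. Exact permutation tests used 70 regroupings. Alternatives were other scalings and filters, limma 3.58.1 voom, DESeq2 1.42.0, the compared lines alone, a replicate block, other thresholds and each sample left out. On simulated data for K/VP.5 against K562, the test recovered 111 of 111 genes changed 4-fold and 89 of 89 changed 8-fold, among 18113 genes. It also called 5 unchanged genes. The changed genes were drawn only from genes with mean counts above those of ITGA2B and ITGB3, so recovery at their levels was not measured.

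The lineage genes and lists were chosen with earlier results of these data known. Named genes were the 9 lineage genes, up to 6 genes of each list past the threshold in either clone against K562 with at least 1 CPM, a set of transcription factors, neighbours within 100 kb past the threshold, and the 2 genes most correlated with a changed lineage gene. Genes outside that rule (ITGA6, RAB27B, TBXA2R, ITGA2, THBS1, WAS, the RUNX family, DOP1B, SIM2 and LINC00649) were named after their values were seen.

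Replicate numbers are shared between lines. In K562/SSedit-2 and K562, all 4 same-numbered pairs deviated together (r = 0.135 to 0.292 across genes), so the numbers were taken to pair these samples. Over 18 pairs of replicates within a line, chi-square per degree of freedom was 4.82 to 56.4, so none was a duplicate. Intervals and limits from counts cover counting error only.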

Additional observations from a re-analysis of the deposited data

Results flagged for a closer look

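One value stood apart from its group. ITGA2B in K562/SSedit-2 replicate 1 was at 1.20 CPM, and its gap to the next replicate took a share of 0.871 of the line's range, above Dixon's 95% critical value for 4 samples. Chance flags about 1 in 20 groups, and 13 combinations of a lineage gene and a line were examined. Without that replicate, the log2 fold change of ITGA2B against K562 was -0.35 and did not pass the threshold.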

How the results depend on the processing

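The number of lineage genes past the threshold (1 in K/VP.5 against K562, 0 in K562/SSedit-2 against K562, 1 in K562/SSedit-2 against K/VP.5) was the same in 18 of 18 alternatives in each comparison. Signs turned for GP1BA in K562/SSedit-2 against K562 (-0.088 without K562 replicate 1 and -0.036 without K562/SSedit-2 replicate 3, and 0.225 at most with 1 sample left out) and for ITGA2B in K562/SSedit-2 against K/VP.5 (-0.063 without K562/SSedit-2 replicate 1, and 0.159 at most), none of them past the threshold. With no fold change cutoff, the genes of the other lists past the threshold numbered 66 in place of 41 in K/VP.5 against K562, 29 in place of 7 in K562/SSedit-2 against K562 and 62 in place of 30 in K562/SSedit-2 against K/VP.5, since that cutoff alone was removed. With 1 sample left out they numbered 37 to 43, 5 to 10 and 30 to 33. The 37 were counted without K562 replicate 1, where RASGRP2, TBXA2R and WAS were among the genes that fell short of 2-fold. Of 234 alternative fold changes of the lineage genes and TOP2A, 230 kept their sign and side of the threshold.

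With the replicate number as a block, those counts were 40, 7 and 30, and RUNX1 in K/VP.5 against K562 was at -2.93; the pairing changed no call of a lineage gene. In K/VP.5 against K562 and K562/SSedit-2 against K/VP.5, 2 and 1 of 4 same-numbered pairs had a correlation over 0.1. Of 8 samples, 3 and 4 correlated best with their own number. The mean correlation of same-numbered pairs was 0.107 and 0.032, beside -0.035 and -0.011 for other pairs. Whether the numbers pair these samples cannot be told from these values. Depth limits VWF, FLI1, GP9 and PF4, for which differences were not detectable, and for PF4 the counting of multi-mapped reads is also not known. All exons of GP1BB are shared with another gene, and whether its 0 comes from read assignment was not tested.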
